A study of Mus musculus with 6 samples.

Results

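The genes described here are 43 nucleolar and ribosome assembly genes among the 18324 gene rows of a count table from sorted mouse melanoma cells. They were taken by mouse symbol from a list of small nucleolar ribonucleoprotein (snoRNP) proteins, pre-ribosomal RNA processing factors and RNA polymerase I components, and all 43 were present in the table and passed the filter on low counts. The list was drawn up after several of its genes had been seen at lower counts in the high-pigmented cells of this same data set. The differences between high- and low-pigmented cells that follow are therefore a description of the genes, not independent evidence.

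The cells were B16-F10, a mouse melanoma line whose cells contain variable amounts of melanin, grown in serum-supplemented culture without any other treatment named in the labels. They were sorted by flow cytometry on the light scatter of intracellular melanin into a high-pigmented and a low-pigmented fraction, each sequenced as 3 libraries. High- and low-pigmented libraries that share a title suffix form pairs 1, 2 and 3. The labels do not say what the suffix marks or whether the pairs were separate cultures, so any p value measures only the spread between these libraries. The sequencing method reads a transcript near its polyadenylated end irrespective of its length, so counts were not divided by gene length and levels of different genes are compared on that scale.

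Ribosomes are assembled in the nucleolus. RNA polymerase I transcribes the long precursor of the ribosomal RNAs, and snoRNPs guide its chemical modification and cleavage: box C/D particles direct 2′-O-methylation and box H/ACA particles direct pseudouridylation. Large sets of assembly factors then fold and trim the small- and large-subunit precursors before export. The pathway is one of the best-known transcriptional targets of MYC and is coupled to cell growth, and many snoRNAs are themselves carried in the introns of genes for nucleolar and ribosomal proteins.

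Pair 2 stood apart before any gene was considered. Gene counts totalled between 3819605 and 7311131 per library. The row RP23-81C12.3 took 53.9% of the high-pigmented library's counts in that pair and 27.1% of its low-pigmented partner's, against at most 5.03% in the other libraries, and the mitochondrial ribosomal RNAs took 12.2% and 7.69%, against at most 1.99%. The high-pigmented library of pair 2 had 10620 genes with a count, the fewest of the 6, and 6 of the 43 genes (*Gar1*, *Heatr1*, *Rrp9*, *Rrp12*, *Nob1* and *Bop1*) had 0 counts in it. All 9 melanocytic line markers were rows of the table. In CPM (edgeR's counts scaled to the normalised library size) they summed to 12909, 4582 and 21429 in the high-pigmented libraries and 10900.2, 6266 and 17753 in their low-pigmented partners. Pair 2 was thus the lowest, and its high-pigmented library lay below its partner, opposite to the other pairs. The pigment genes *Pmel* and *Tyrp1* had 148 and 132 CPM in that library against 222 and 252 in its partner, against the labels. The markers *Dct*, *Sox10*, *Mitf* and *Tyr* were also lower there than in its partner, and *Gpr143* had 0 counts in both. Only *Slc45a2* and *Mlana* were higher, at 138.5 and 97.8 CPM against 76.9 and 64.3. In pair 1, *Tyrp1* and *Tyr* were also not higher in the high-pigmented library, at 1613 and 81.7 CPM against 1628 and 83.8. The other markers were higher in that library, and in pair 3 all 9 were. The low-pigmented library of pair 2 also stood out, with 92534 CPM for *Malat1* against 3064 to 10252 CPM in the other libraries. Medians and calls are therefore also given without pair 2. Other cell types were checked with 4 of 7 listed fibroblast, 4 of 7 leukocyte, 2 of 6 keratinocyte and 3 of 5 endothelial markers, and the other markers were not analysed here. Their sums ran from 0.935 to 41.9, 3.04 to 39.6, 2.44 to 39.6 and 0 to 23.3 CPM in high-pigmented libraries, and from 2.57 to 5.29, 0 to 4.13, 0 to 2.83 and 0 to 1.26 CPM in low-pigmented ones. The high-pigmented library of pair 2 held each maximum. The part of these markers in the results was not tested.

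Hosting of snoRNA genes was not used to choose the list. In the GENCODE vM21 annotation of the mouse genome (build GRCm38), 7 of the 43 (16.3%) contain at least 1 small nucleolar or small Cajal body RNA gene on the same strand, against 202 of 9684 tested protein-coding genes that matched the annotation (2.09%). The 7 are *Ncl*, *Nop58*, *Nop56*, *Dkc1*, *Wdr43*, *Tsr1* and *Gnl3*, which hold 21 such RNA genes between them, 11 of them clear of every annotated exon of the host. Of 142 other ribosome biogenesis genes that matched, 2 (1.41%) were hosts. Intronic box C/D RNAs of the hosts with the most counts are shown because their reads and those of the host come from the same locus. Capitals mark the C box core TGATGA and the D box CTGA within 30 bases of the end, searched on the RNA strand only. Of 97 annotated RNAs named Snord, 72 (74.2%) hold both, as do 5 of the 10 in these hosts.
Snord82 (in Ncl, chr1:86356261-86356330, minus strand): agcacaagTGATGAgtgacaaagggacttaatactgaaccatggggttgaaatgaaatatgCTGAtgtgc
Snord11 (in Nop58, chr1:59704790-59704873, plus strand): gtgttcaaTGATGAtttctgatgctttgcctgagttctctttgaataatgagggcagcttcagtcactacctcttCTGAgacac
Snord110 (in Nop56, chr2:130275506-130275573, plus strand): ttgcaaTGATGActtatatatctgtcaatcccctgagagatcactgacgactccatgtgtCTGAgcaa
Snord92 (in Wdr43, chr17:71631281-71631365, plus strand): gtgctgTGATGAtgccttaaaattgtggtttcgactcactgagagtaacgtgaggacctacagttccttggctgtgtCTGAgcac
Of the 21 small RNAs, 6 were rows of their own here, with at most 31 counts each over the 6 libraries.

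Promoter sequence offered a further comparison. The E-box CACGTG, a palindrome that reads the same on both strands, is bound by helix-loop-helix factors that include MYC with MAX and the melanocyte factor MITF. It was searched in RefSeq windows from 250 bases before to 50 after the start of each gene (GRCm38.p6). Of the 43 genes, 37 had a window, all but *Fbl*, *Npm1*, *Rrp12*, *Bop1*, *Rrs1* and *Tcof1*, and 8 of the 37 (21.6%) held the E-box. The share was 12.4% (984 of 7915) among all tested genes with a window, 18.5% (22 of 119) among other ribosome biogenesis genes and 8.09% over all 27025 genes with a window. Of the 20 genes that were lower in the high-pigmented library of every pair and had a window, 5 held it, and so did 3 of the other 17. The windows of the 4 most abundant of those 5 genes are given, with the E-box in capitals, to show where it lies.
Wdr43 (chr17:71615965-71616264, plus strand): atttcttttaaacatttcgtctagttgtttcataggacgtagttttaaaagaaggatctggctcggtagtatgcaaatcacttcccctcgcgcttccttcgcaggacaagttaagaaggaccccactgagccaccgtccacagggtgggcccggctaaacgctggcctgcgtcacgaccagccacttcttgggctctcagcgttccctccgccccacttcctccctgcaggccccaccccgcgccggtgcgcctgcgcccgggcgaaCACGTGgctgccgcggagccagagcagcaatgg
Nop2 (chr6:125131633-125131932, plus strand): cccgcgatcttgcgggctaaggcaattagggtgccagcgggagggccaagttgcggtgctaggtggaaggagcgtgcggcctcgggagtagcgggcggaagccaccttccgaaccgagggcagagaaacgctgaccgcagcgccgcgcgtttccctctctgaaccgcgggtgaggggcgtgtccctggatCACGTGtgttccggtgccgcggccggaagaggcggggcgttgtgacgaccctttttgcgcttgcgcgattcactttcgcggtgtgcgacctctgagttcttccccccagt
Ltv1 (chr10:13193088-13193387, minus strand): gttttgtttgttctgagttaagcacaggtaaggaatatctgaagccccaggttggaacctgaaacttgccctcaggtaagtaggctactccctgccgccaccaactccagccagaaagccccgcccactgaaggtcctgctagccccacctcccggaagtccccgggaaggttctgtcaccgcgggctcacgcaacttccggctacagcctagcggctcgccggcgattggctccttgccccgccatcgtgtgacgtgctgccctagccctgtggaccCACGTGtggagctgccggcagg
Tsr1 (chr11:74897830-74898129, plus strand): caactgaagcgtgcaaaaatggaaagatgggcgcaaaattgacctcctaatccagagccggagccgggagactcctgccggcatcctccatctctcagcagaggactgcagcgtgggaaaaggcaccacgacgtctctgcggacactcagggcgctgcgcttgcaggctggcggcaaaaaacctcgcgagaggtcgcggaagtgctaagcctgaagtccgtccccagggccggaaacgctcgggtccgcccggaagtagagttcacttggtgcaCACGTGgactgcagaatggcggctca
In *Wdr43*, *Tsr1* and *Ltv1* the E-box begins 17, 24 and 28 bases after the start site, and in *Nop2* it begins 60 bases before it. *Pelp1*, the fifth, has it 229 bases before the start. A match describes the letters of the window only; binding was not measured.

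The 43 genes took a smaller share of gene counts in every high-pigmented library than in any low-pigmented one. In pairs 1, 2 and 3 the share was 0.545%, 0.184% and 0.487% for high-pigmented cells, against 0.737%, 0.687% and 0.703% for low-pigmented cells. The Wilson 95% intervals, which cover counting error only, ranged from 0.180% to 0.188% in the lowest library and from 0.729% to 0.745% in the highest. With RP23-81C12.3 and the 2 mitochondrial ribosomal RNA rows left out of the total, the shares were 0.586%, 0.543% and 0.521% in high-pigmented and 0.776%, 1.05% and 0.742% in low-pigmented libraries. The high-pigmented libraries then lay close together, and the low-pigmented library of pair 2 became the highest of the 6. In bulk libraries a smaller share of cells rich in these transcripts and less transcript per cell cannot be told apart.

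**Figure D1:**
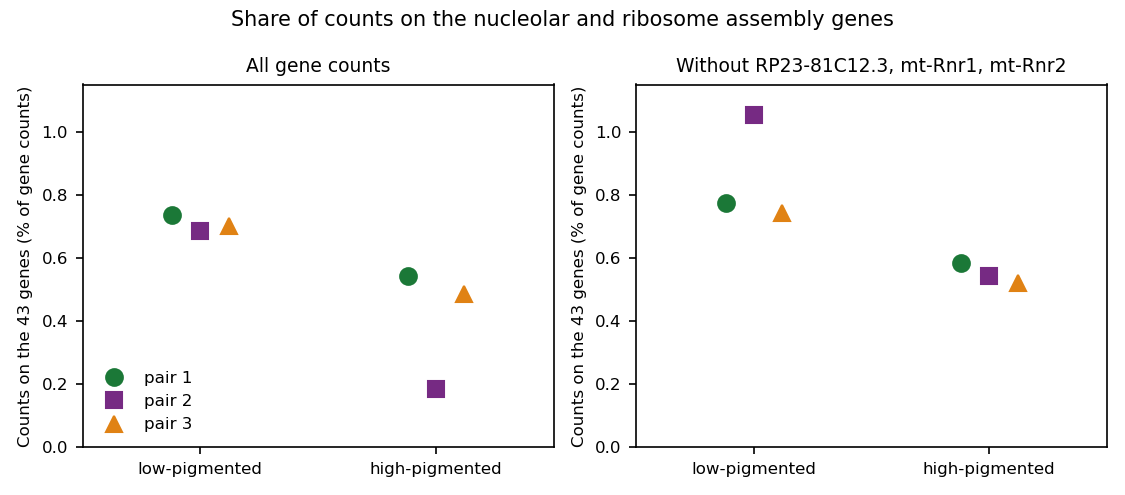
Counts on the 43 genes as a percentage of gene counts in each of the 6 libraries (y axis), by pigmentation (x axis), with symbols for pairs 1 to 3; all gene counts on the left, RP23-81C12.3, mt-Rnr1 and mt-Rnr2 left out on the right. High-pigmented libraries lie below low-pigmented ones in both panels, and the pair 2 high-pigmented value moves from 0.184% to 0.543%.

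Levels spanned a wide range. Over all 6 libraries 9 genes averaged at least 100 CPM, 31 between 10 and 100 and 3 below 10, with a median of 44.3 CPM against 19.3 CPM over all tested genes. *Ncl* and *Npm1* together made up 52.4% of the summed level. They were followed by *Nop58*, *Wdr43*, *Ddx21*, *Nop56* and *Nop14*, with means of 349.8, 185.8, 173.8, 141.9 and 139.8 CPM. The spread over libraries does not separate these neighbours: *Wdr43* alone ran from 106.5 to 472.8 CPM. The lowest were *Heatr1* and *Rrp12*, at 3.34 and 4.72 CPM.

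*Ncl* encodes nucleolin, an abundant RNA-binding protein of the nucleolus that acts in rDNA transcription and early pre-rRNA processing. The gene lies at chr1:86344719-86359400 on the minus strand. In the order of pairs 1, 2 and 3, kept for every gene that follows, it had 1043, 991.7 and 925.5 CPM in high-pigmented and 1606, 3241 and 1437 CPM in low-pigmented libraries. The groups did not overlap, and the low-pigmented library of pair 2 was far above the others. *Npm1*, the gene of the histone and ribosome chaperone nucleophosmin (chr11:33152287-33163206, minus strand), had 788.3, 1347 and 1104 CPM in high-pigmented and 1161, 1787 and 1508 CPM in low-pigmented libraries. Its groups overlapped, but the difference within pairs was similar throughout, at -0.56, -0.41 and -0.45 on the log2 scale. *Npm1* shares near-identical sequence with 4 other rows of the table, which together had 475 counts against 44240 for *Npm1*.

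The box C/D snoRNP proteins were lower in the high-pigmented library of all 3 pairs in each case. *Nop58*, a core scaffold protein of the particle (chr1:59684971-59719044, plus strand), had 265.5, 184.5 and 143.9 CPM in high-pigmented and 327.4, 892.2 and 285.5 CPM in low-pigmented libraries. Its groups did not overlap, and again the low-pigmented library of pair 2 was the highest. Its transcripts share stretches with 53 other rows of the table, of which 1 does so within the last 500 nucleotides, so its counts carry some uncertainty. Its partner *Nop56* differed by -0.48, -3.22 and -0.46 (log2, pairs 1, 2 and 3). Counts of *Nop56* (4914) are uncertain too, because it overlaps exons of *Idh3b* (2096 counts) on the other strand. The last 500 nucleotides of its transcripts also share stretches with 2 other rows (504 counts). *Fbl*, the gene of the methyltransferase fibrillarin, had 56.5, 59.4 and 48.5 CPM in high-pigmented and 76.8, 89.8 and 68.1 CPM in low-pigmented libraries. For *Fbl* pair 2 was not exceptional: the within-pair log2 differences were -0.44, -0.59 and -0.49 and the groups did not overlap.

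The box H/ACA proteins did not move as a unit. *Dkc1*, the gene of the pseudouridine synthase dyskerin (chrX:75095854-75109777, plus strand), had 84.6, 29.1 and 49.6 CPM in high-pigmented and 119, 106.9 and 92.5 CPM in low-pigmented libraries, with no overlap. Its counts are uncertain, because the last 500 nucleotides of its transcripts share stretches with 2 other rows, which had 2811 counts against 2969 for *Dkc1*, and because it overlaps exons of *Mpp1* on the other strand. *Gar1*, a protein that joins the particle late in its assembly, had 57.1, 0 and 36.9 CPM in high-pigmented and 86.4, 5.72 and 76.9 CPM in low-pigmented libraries. *Gar1* was lower within each pair, but in pair 2 it had 0 and 20 counts, so no fold is given there. *Nop10*, the smallest core protein, went the other way in every pair by a narrow margin, with 92.2, 49.5 and 84.3 CPM in high-pigmented and 86.4, 44.6 and 76.8 CPM in low-pigmented libraries. The log2 differences of *Nop10* were 0.09, 0.15 and 0.13, and no other gene of the 43 was higher in high-pigmented cells within all 3 pairs. *Nhp2*, the remaining core protein, differed by 0.07, -0.73 and -0.30. *Nolc1*, a snoRNP chaperone of the nucleolus and Cajal body, differed by -0.01, -1.34 and -0.63 without overlap between the groups.

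**Figure D2:**
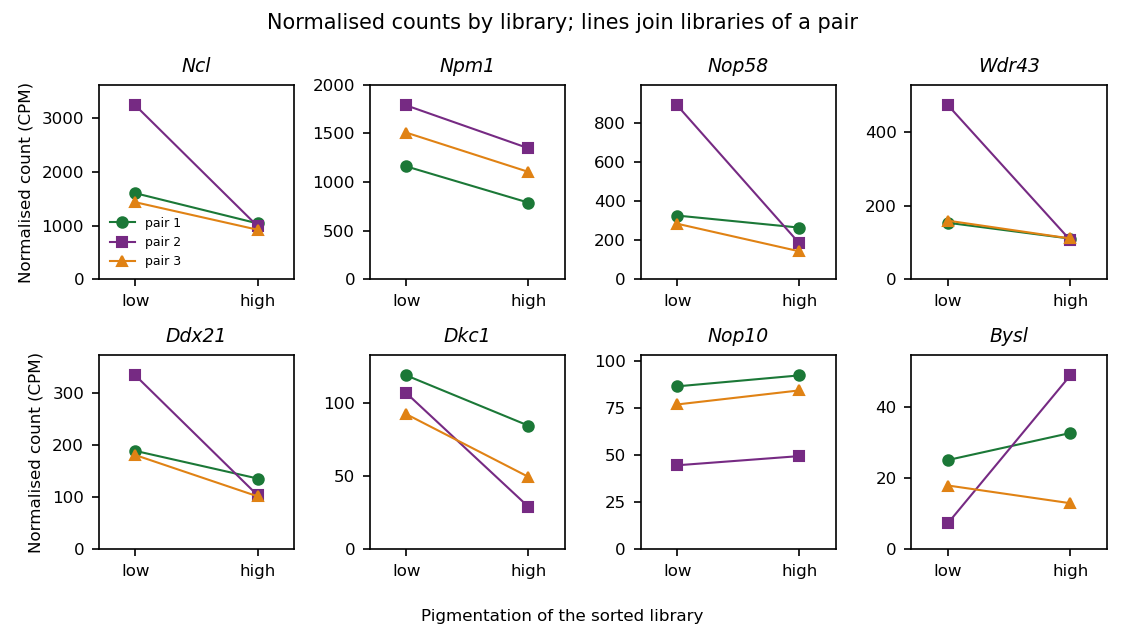
Normalised counts (CPM, y axis from 0) of 8 of the genes in low- and high-pigmented libraries (x axis), with a line joining the libraries of each pair. *Ncl*, *Nop58*, *Wdr43* and *Ddx21* share a high pair 2 low-pigmented value, *Npm1* runs in near-parallel lines, *Nop10* is nearly level, and *Bysl* moves in opposite directions in pairs 2 and 3.

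Genes of RNA polymerase I and rDNA transcription were less regular. *Tcof1* encodes treacle, which recruits factors to the rDNA, and it had 38.9, 190.3 and 36.0 CPM in high-pigmented and 56.4, 203.5 and 68.8 CPM in low-pigmented libraries. Both libraries of pair 2 were high for it, so the groups overlapped although it was lower within each pair. *Mybbp1a*, the gene of a nucleolar MYB-binding protein, had 57.3, 29.1 and 29.2 CPM in high-pigmented and 54.9, 60.6 and 66.4 CPM in low-pigmented libraries. *Polr1b*, the second largest subunit, had 9.11, 16.9 and 8.42 CPM against 14.0, 6.58 and 9.13 CPM, so pair 2 ran against the other pairs. The largest subunit, *Polr1a*, differed by 0.22, -1.35 and -0.79 on the log2 scale. *Polr1b* counts are uncertain, because the last 500 nucleotides of its transcripts share stretches with 40 other rows.

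Among the 10 genes of the small-subunit processome, the particle that forms on the nascent precursor, 4 were lower in the high-pigmented library of every pair. *Wdr43*, a subunit of the early-binding UTP-A complex (chr17:71615895-71659031, plus strand), had 110.8, 106.5 and 111.2 CPM in high-pigmented and 153.9, 472.8 and 159.6 CPM in low-pigmented libraries. Its high-pigmented libraries agreed within a few CPM, and the groups did not overlap. *Wdr75*, of the same complex, also had no overlap, with log2 differences of -0.80, -0.89 and -0.07. *Nop14*, *Utp20*, *Utp15*, *Rrp9* and *Nat10* were higher in the high-pigmented library of pair 1. *Nat10*, the gene of the RNA cytidine acetyltransferase that modifies 18S rRNA, had 16.9, 29.1 and 7.13 CPM in high-pigmented and 13.7, 32.0 and 9.97 CPM in low-pigmented libraries. *Heatr1* had 0 counts in both libraries of pair 2, so that pair carries no comparison for it.

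The late small-subunit factors held the largest opposite value. *Bysl*, needed for 40S maturation, had 32.7, 48.9 and 13.0 CPM in high-pigmented and 25.1, 7.43 and 17.95 CPM in low-pigmented libraries. It was higher in high-pigmented cells in pairs 1 and 2 (84 against 26 counts in pair 2) and lower in pair 3, and its log2 fold change of 0.89 over all libraries was -0.045 in a fit of pairs 1 and 3 with the pairs as a block. *Bysl* overlaps exons of *Ccnd3* on the other strand, and the use of strand in counting is not given in the sources used here, so their reads may be mixed. *Tsr1*, a GTPase-like factor of the pre-40S particle, had 34.7, 6.98 and 32.4 CPM against 41.3, 34.6 and 40.3 CPM. *Ltv1*, a late factor of that particle, had 41.2, 26.2 and 25.02 CPM in high-pigmented and 52.6, 45.7 and 33.8 CPM in low-pigmented libraries. Both were lower within all 3 pairs, whereas *Nob1*, the nuclease that makes the 3′ end of 18S rRNA, differed by 0.04 in pair 1 and -0.33 in pair 3.

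Of the 15 large-subunit assembly genes, 9 were lower within every pair. All 15 had a log2 fold change below 0 over the 6 libraries, but that of *Pes1* (-0.05) was above 0 when any of 4 single libraries was left out, with values up to 0.19. *Ddx21*, an RNA helicase that links RNA polymerase I transcription to processing (chr10:62580251-62602281, minus strand), had 135.7, 103.6 and 101.6 CPM in high-pigmented and 188.6, 333 and 180.6 CPM in low-pigmented libraries. *Pelp1*, a scaffold protein of a complex in 60S maturation, had 10.2, 6.40 and 10.6 CPM against 13.7, 74.0 and 17.7 CPM. Neither gene's groups overlapped, but the low-pigmented library of pair 2 set the size of the *Pelp1* difference. Without that library the log2 fold change was -0.78 for *Pelp1* and -0.70 for *Ddx21*, in place of -1.93 and -1.04. It was likewise -0.63 for *Ncl*, -0.63 for *Nop58* and -0.52 for *Wdr43*, in place of -1.09, -1.34 and -1.26.

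The subunits of the PES1-BOP1-WDR12 complex, which acts in processing of the 5.8S and 28S rRNAs, did not differ in 1 direction throughout, apart from small negative values for *Wdr12*. *Pes1* had 27.0, 43.7 and 18.6 CPM in high-pigmented and 33.1, 36.0 and 22.7 CPM in low-pigmented libraries, with overlap. *Wdr12* differed by -0.12, -0.04 and -0.01 on the log2 scale, and *Bop1*, at a mean of 9.70 CPM, by 0.42 and -0.06 in pairs 1 and 3, with 0 against 26 counts in pair 2. *Wdr12* and *Nip7* share stretches with 60 and 50 other rows, 1 and 37 of them in the last 500 nucleotides, so their counts are uncertain too. In all, 10 of the 43 genes share such stretches with other rows, 13 overlap exons of a row on the other strand, and 25 have neither. Of the remaining genes, *Gnl3*, which encodes nucleostemin, had no overlap between its groups (log2 differences -0.34, -1.67 and -0.53). *Nop2*, an rRNA methyltransferase, *Nop16*, *Ftsj3* and *Noc2l* were lower within every pair with overlapping groups. Counts of *Gnl3* and *Noc2l* are uncertain. *Gnl3* (2307 counts) overlaps exons of *Pbrm1* (4874) on the other strand. *Noc2l* (663 counts) shares stretches of its last 500 nucleotides with 6 other rows (4611 counts). Overlap with exons on the other strand also makes counts of *Heatr1* (151, with *Lgals8* at 2604) and *Rrp9* (403, *Parp3* 919) uncertain. The same holds for *Bop1* (417, *Mroh1* 974), *Tsr1* (1257, *Srr* 786) and *Nhp2* (1516, *Rmnd5b* 296).

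**Figure D3:**
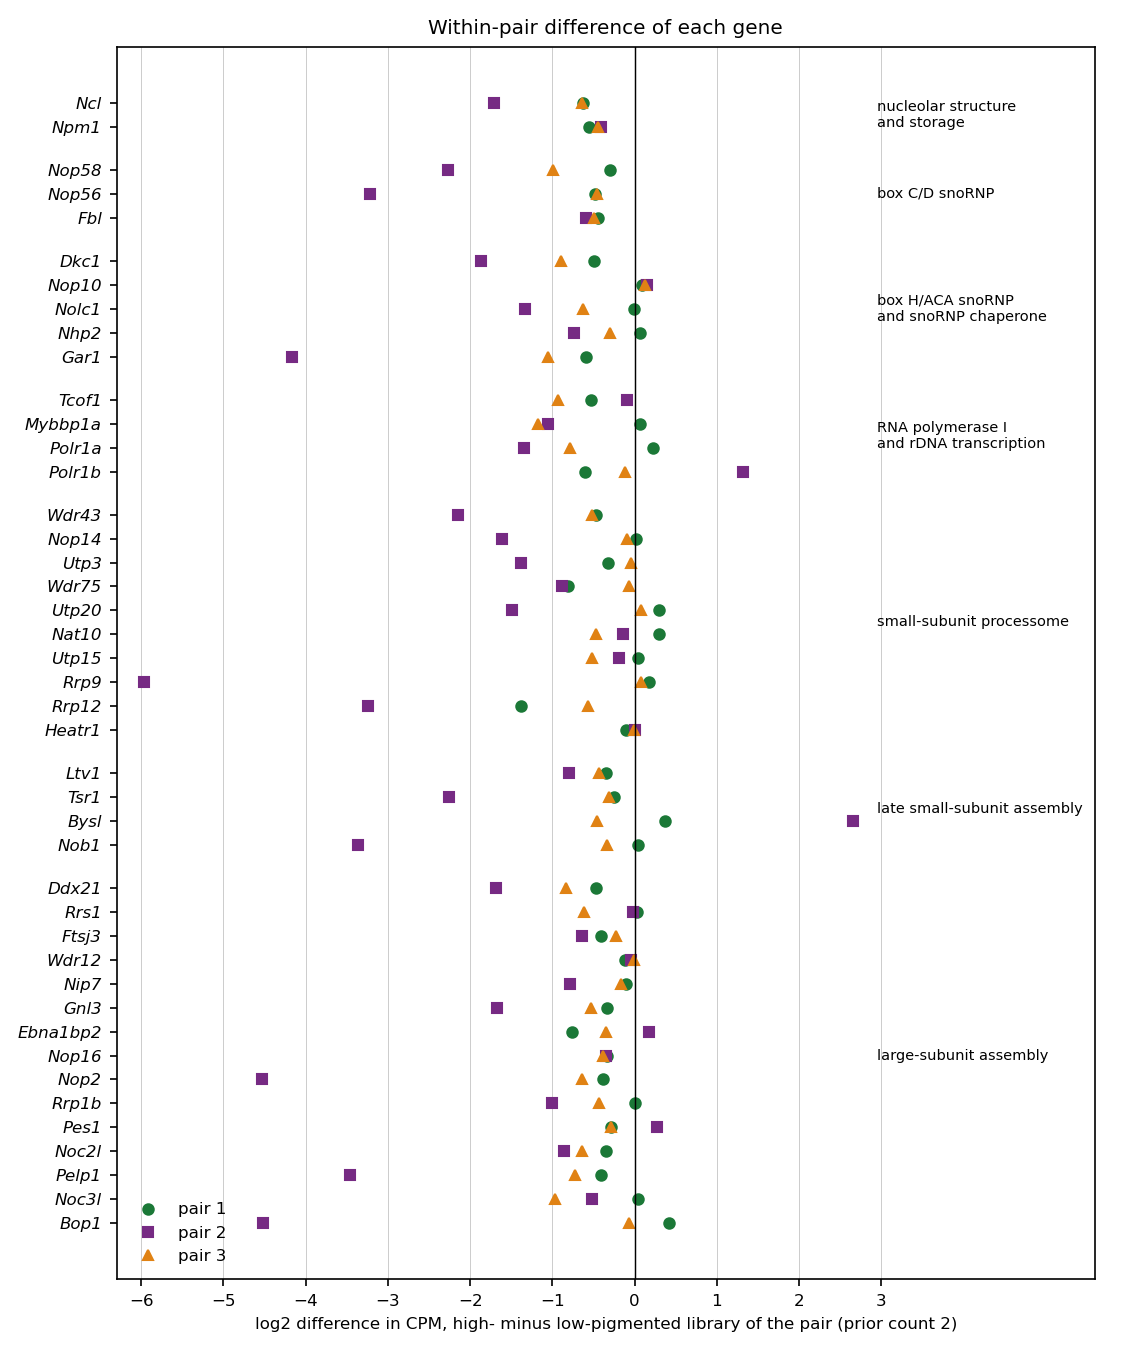
Log2 difference in CPM between the high- and low-pigmented library of each pair (x axis, prior count 2) for all 43 genes, grouped by role and ordered by level within it; symbols mark the pairs. Most symbols lie left of 0, and pair 2 has the widest scatter, from -5.97 for *Rrp9*, whose 0 counts in 1 library make the value depend on the prior count, to 2.66 for *Bysl*.

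Counted over the 43 genes, 40 had a log2 fold change below 0 in edgeR's fit without the pairs, where 53% of the 11324 genes tested did. Between 36 and 40 did so over the alternatives run. Their median was -0.51, against -0.04 over all genes tested, and single genes ranged from -1.93 to 0.89. In 10 genes all 3 high-pigmented libraries were below all 3 low-pigmented ones, and in 0 the reverse held. The shares over all genes tested were 3.31% and 2.43%. The 10 were *Ncl*, *Nop58*, *Fbl*, *Dkc1*, *Nolc1*, *Wdr43*, *Wdr75*, *Ddx21*, *Pelp1* and *Gnl3*. Within every pair 24 genes were lower, where 17.2% of all genes were. By pair, 28, 37 and 40 of the 43 were lower in pairs 1, 2 and 3, where 48.6%, 55% and 50.2% of all genes were. Since the list was proposed from this contrast, these counts say what the list holds and are not read as evidence.

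Tested with edgeR's quasi-likelihood fit over all genes, 0 of the 43 and 0% of the 11324 tested had a Benjamini-Hochberg adjusted p below 0.05, with or without the pairs as a block. DESeq2 called 0 as well. At an unadjusted p under 0.05 there were 5 of the 43 without the block and 5 with it, where 0.336% and 1.88% of all genes were. When pair 2 was left out and the remaining pairs were blocked, 6 of the 43 passed, all lower in high-pigmented cells. Of all 11906 genes, 1.3% passed in either direction and 0.37% as lower. The list was proposed from this contrast, and pair 2 was left out after its libraries had been seen to stand apart. The p values given here therefore describe the listed genes and are not read as evidence. Without pair 2, the spread is also estimated from few libraries, with little left for it after group and pair are fitted. In that edgeR fit *Ncl* had the smallest adjusted p (0.00403, log2 fold change -0.64 ± 0.11 SE), followed by *Gar1* (0.0220) at -0.84 ± 0.19. *Ddx21* stood at -0.66 ± 0.15 (0.0241), *Npm1* at -0.51 ± 0.12 (0.0252), *Dkc1* at -0.71 ± 0.17 (0.0359) and *Nop58* at -0.66 ± 0.15 (0.0375). *Npm1* and *Gar1*, whose groups overlap, are among them, while *Wdr43*, *Fbl* and *Pelp1*, whose groups do not, are not. In that fit *Tcof1* had an adjusted p of 0.0578, and 39 of the 43 were below 0 with a median of -0.37. With limma-voom's sample weights and the block on all 6 libraries, *Ncl* (0.0265) and *Npm1* (0.0450) passed, where 0.3% of all genes did.

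The 7 snoRNA hosts were lower within all 3 pairs in 7 of 7 cases, and the 36 genes that host none in 17. Median log2 fold changes were -1.09 for the hosts and -0.46 for the rest, and -0.51 and -0.32 in the blocked fit of pairs 1 and 3. Among 195 other tested host genes outside the list, 57 (29.2%) were lower within every pair, where 17.2% of all genes were, and the median was -0.17. This split was made after the values were seen and was not tested. The list was itself proposed from this contrast, so the split within it is a description and not evidence about hosting. *Ncl*, *Nop58* and *Wdr43* are hosts and among the 4 most abundant genes of the list, *Npm1* is abundant and hosts none, and level was not separated from hosting.

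The rest of the pathway was taken from a list of 153 other ribosome biogenesis genes, of which 149 were rows and 147 were tested. The list includes regulators of rRNA synthesis such as *Myc* and *Mxd4*, of which 7 were tested, with a median log2 fold change of -0.07. The median of all 147 was -0.30, between the 43 genes and all genes tested, with 93 of 147 below 0. Within pairs 1, 2 and 3 the medians were -0.12, -0.42 and -0.22, against -0.30, -1.0 and -0.46 for the 43 genes and 0.02, -0.20 and -0.00 over all genes. Within every pair 50 of the 147 were lower and 5 higher, where 17.2% and 12.9% of all genes were. Groups did not overlap in 9, all lower in high-pigmented cells, where 3.31% of all genes were lower without overlap and 2.43% higher. By edgeR's adjusted p, 0 of the 147 passed (1 at an unadjusted p under 0.05), and DESeq2 called 0. Without HPC replicate 2 or LPC replicate 1, as the high-pigmented library of pair 2 and the low-pigmented library of pair 1 are called, the median was -0.13 and -0.10.

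**Figure D4:**
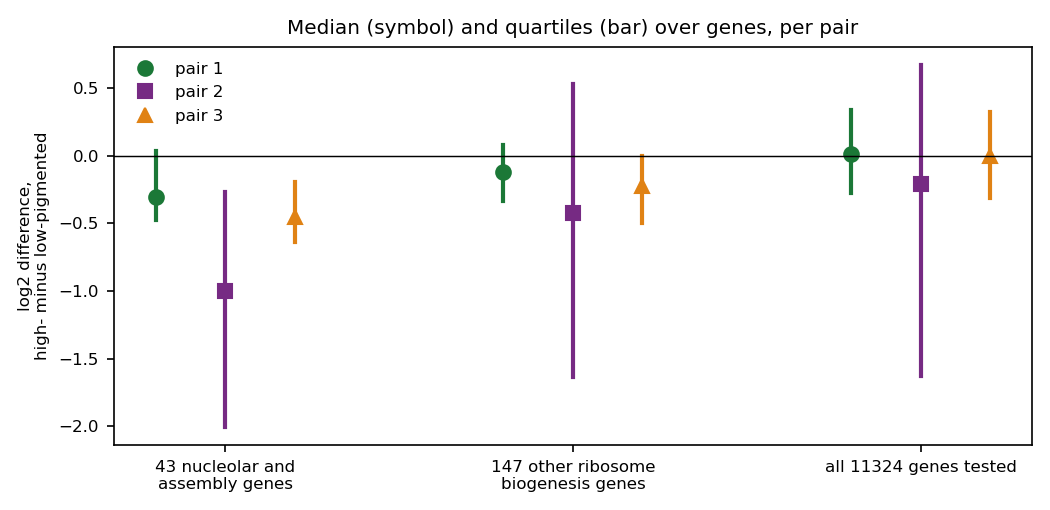
Median (symbol) and quartiles (bar) of the within-pair log2 difference, high- minus low-pigmented (y axis), for the 43 genes, 147 other ribosome biogenesis genes and all 11324 genes tested (x axis). The medians of the 43 genes are -0.30, -1.0 and -0.46, and those of all genes 0.02, -0.20 and -0.00.

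Among these other genes, those of at least 10 CPM without overlap and with the largest differences were *Riok1*, *Esf1*, *Sdad1*, *Pdcd11* and *Rcl1*, all lower in high-pigmented cells. *Riok1*, a kinase of late 40S assembly, had 26.0, 11.6 and 20.5 CPM in high-pigmented and 31.6, 76.9 and 35.3 CPM in low-pigmented libraries. *Pdcd11*, the counterpart of yeast RRP5, had 31.4, 23.3 and 27.1 CPM against 39.3, 68.0 and 48.1 CPM. The low-pigmented library of pair 2 was again the highest in both. *Mxd4*, which encodes an antagonist of MYC that pairs with MAX, was the single gene of the list to pass in edgeR's blocked fit of pairs 1 and 3. It passed as higher in high-pigmented cells (log2 fold change 0.69 ± 0.16 (SE), adjusted p 0.0308). Of all genes, 0.932% passed as higher, so 1 of 147 is near the background. Levels of *Mxd4* were 92.9, 44.8 and 165.2 CPM in high-pigmented and 52.1, 60.0 and 111.4 CPM in low-pigmented libraries, so pair 2 had the opposite sign. *Myc*, named after its values were seen, had 35, 7 and 24 counts in high-pigmented and 77, 1 and 57 counts in low-pigmented libraries, too few in pair 2 to compare.

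The genes were not listed for differences between the pairs, which were tested in a model with group and pair, but the same libraries enter both contrasts. Between pairs 3 and 1, edgeR's adjusted p called 0 of the 43 genes and 0% of all genes. At an unadjusted p under 0.05 there were 3 of the 43, where 8.37% of all genes were, a share near the background, and DESeq2 called 0 of the 43 and 3.82% of all genes. With the high- or the low-pigmented library of pair 2 left out, so that 1 library of that pair remained, 12 of the 43 were called each time, where 25.2% and 26.3% of all genes were. In those fits the lone library is fitted by its own pair term, so the spread comes from pairs 1 and 3 alone. With all 6 libraries, the median difference of the 43 genes was -0.36 (log2, pair 3 minus pair 1), with 32 below 0, against 0.00 over all genes. Without the high-pigmented library of pair 1 this median was 0.13, against 0.17 over all genes. Between pair 2 and the mean of pairs 1 and 3, 0 of the 43 passed, where 0.83% of all genes did (0.344% as lower and 0.486% as higher in pair 2). At an unadjusted p under 0.05 there were 12, again near the background of 27.4%, and DESeq2 called 8, where it called 20.2% of all genes. With the high- or the low-pigmented library of pair 2 left out, 24 of the 43 were called each time, where 47.4% and 54% of all genes were. Pair 2 then rests on 1 library and the spread again on pairs 1 and 3 alone, so these calls are not read as a difference of that pair. With all 6 libraries, the median of the 43 genes in this contrast was 0.04, against -0.29 over all genes. It was -0.45 when the low-pigmented library of pair 2 was left out, against -0.51 over all genes.

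Across the 43 genes, the within-pair differences of pairs 1 and 3 had a Pearson correlation of 0.21 and a Spearman correlation of 0.26, where the values over all 11324 genes were 0.15 and 0.20. Those of pairs 1 and 2 correlated at 0.095 (Pearson) and 0.094 (Spearman), and those of pairs 2 and 3 at 0.097 and 0.24. Genes are not independent replicates, and the pairs share the cell line, the sorting method and the library method. These values therefore describe how loosely the size of the difference for a gene carried over from pair to pair.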

How the data were processed

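The authors deposited raw counts per gene and library, which the name and tally rows of the file ascribe to HTSeq. STAR and the build GRCm38 are named in the submitters' processing notes. The counting mode, use of strand and annotation are not given in the sources used here. The labels' protocols state total RNA, on-column DNase treatment and Lexogen QuantSeq forward libraries. Molecular identifiers are not mentioned, so counting intervals may be too narrow.

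Genes were identified by mouse symbol, and 11 of the other pathway genes by an older symbol. Tally rows were left out; no-feature reads made up 12.4% to 29.5% of reads. All 6 libraries entered edgeR 4.0.16 in R 4.3.3 (filterByExpr with a minimum count of 10, TMM, robust quasi-likelihood fit, group only), with Benjamini-Hochberg adjustment over all 11324 genes tested and a threshold of 0.05. Contrasts between pairs used group plus pair. CPM are on TMM-scaled library sizes, within-pair differences use a prior count of 2, and SEs come from the test statistic. The alternatives were a pair block, leaving out pair 2 or each library, DESeq2 1.42.0, limma 3.58.1 (voom with sample weights), other scalings, no filter and leaving out 3 abundant rows.

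The pairing comes from shared title suffixes. Deviations from group means correlated at 0.466, 0.316 and 0.422 in pairs 1, 2 and 3. Libraries of different pairs were not correlated in this way, so these correlations do not test the pairing. Every 2 libraries differed by more than sampling noise (a chi-square of at least 13.5 for each degree of freedom). That value was 13.5, 123 and 20.7 within pairs 1, 2 and 3. Between libraries of different pairs it was at least 57.1, and at least 199 where 1 library was of pair 2. By this measure each library was closest to the one that shares its suffix. Shared sequence means at least 100 nucleotides at 95% identity or more between vM21 transcripts. Members and lists were chosen with earlier results of these data known. Values in every library are given for *Ncl*, *Ddx21* and *Pelp1*, for the most abundant gene and the most negative and most positive fold change (mean at least 10 CPM) of each role, and for genes passing with the block and without pair 2. From the other list, genes passing that fit and the 5 with the largest difference without overlap are named. Figures were drawn with matplotlib 3.10.9.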

Additional observations from a re-analysis of the deposited data

How the results depend on the processing

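The direction of the 43 genes together was the same in every alternative run. Their median log2 fold change lay between -0.72 and -0.36, and between 36 and 40 of them were below 0. That of the other ribosome biogenesis genes ranged from -0.43 to -0.10 when each library was left out. The median of all genes tested, -0.04, was -0.15 when HPC replicate 1 was left out. With the pairs as a replicate block and pair 2 left out, 155 genes were called between high- and low-pigmented cells, and 34 with limma-voom's sample weights and the block. The replicate block with all 6 libraries gave 0 genes and a median of -0.55, and changed no call. In that block without pair 2, *Polr1b* was -0.38 and *Bysl* -0.045, in the opposite direction to all 6 libraries, and *Polr1b* was -0.31 with sample weights. In the fit without the pairs, leaving out single libraries moved *Nop10* between -0.11 and 0.35, *Tcof1* between -1.54 and 0.48 and *Pes1* between -0.42 and 0.19. *Polr1b* moved between -0.18 and 0.53 and *Nat10* between -0.62 and 0.56. The sign of these genes in that fit thus rests on single libraries, and the partner of a library left out is unmatched. Within pairs, *Nop10* was higher and *Tcof1* lower in high-pigmented cells in every pair. Genes called between pairs 3 and 1 numbered 433 with DESeq2, 14 without a filter and 0 to 3098 when single libraries were left out; the highest counts came without a library of pair 2. Between pair 2 and the others there were 2282 with DESeq2, 348 without a filter and 0 to 6369 when single libraries were left out. A lone library of a pair is then assumed to vary like the others. It is fitted by its own pair term, so the spread comes from the complete pairs only. The median of the 43 genes ranged from -0.47 to 0.13 between pairs 3 and 1. For pair 2 it ranged from -0.45 to 0.38, and it was -0.072 without a filter. In the fits that gave -0.47, 0.13, -0.45, 0.38 and -0.072, the median over all genes was -0.05, 0.17, -0.51, -0.18 and -0.56. The cause was not tested. Depth limits single genes in pair 2, where the high-pigmented library held 7022 counts on the 43 genes.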
